A study of Mus musculus with 4 samples.

Results

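The genes described here encode the enzymes that open the breakdown of the branched-chain amino acids leucine, isoleucine and valine. They are the transaminases Bcat1 and Bcat2, the subunits of the branched-chain ketoacid dehydrogenase Bckdha, Bckdhb and Dbt, its kinase Bckdk, the leucine enzymes Ivd, Mccc1 and Mccc2, and the valine enzyme Hibch. The 10 genes were picked by symbol from the 54152 symbols of the deposited table, as a pathway, because Bcat1 was much higher in 1 group. All 10 were found and all 10 passed the filter on low counts. The values of the comparison between the groups therefore chose the set, and they are given below as a description, without p-values.

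The RNA came from whole uteri, taken on day 4 of pregnancy from mice of strain C57. There were 2 libraries with the p38α genotype labelled ff and 2 with the genotype labelled dd, and the title of the study calls the genotypes wild type and p38α knockout. The sources used here do not state the deleted part of the gene, any Cre driver, the ages of the mice, or whether replicates came from separate animals or pools, so errors measure only the spread between these samples. Total counts lay between 24619850 and 32451670 per library. Mapk14, which encodes p38α, did not fall in the group labelled dd. Its mean was 89.7 ± 3.78 CPM in the ff group and 109.1 ± 5.79 CPM in the dd group (SD, n = 2; log2 fold change 0.28, edgeR adjusted p = 0.12). CPM are counts scaled to the normalised library size. A gene total says nothing about single lost exons, so only the sample labels give the directions below.

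Branched-chain amino acids are first stripped of their amino group by a transaminase, which passes it to 2-oxoglutarate and so forms glutamate. Bcat2 does this in mitochondria in most tissues, while Bcat1 is the cytosolic form, found in fewer adult tissues and in many growing cells. The resulting ketoacids are committed to breakdown by the mitochondrial ketoacid dehydrogenase complex, which the kinase Bckdk switches off and the phosphatase Ppm1k switches on. Separate arms for leucine, isoleucine and valine follow.

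Sequences at annotated starts of both transaminase genes are shown because the levels of these genes are compared below. They run from 250 bases before to 50 bases after a start and come from RefSeq on GRCm38.p6, the assembly also called mm10. Bcat1 has a start on the minus strand of chromosome 6 at 145076157 and another at 145048812, 27345 bases further along the gene, and counts per gene do not tell transcripts of these starts apart. The first Bcat2 start lies on the plus strand of chromosome 7 at 45570153. Capitals mark matches, on either strand, to the motifs searched.
Bcat1 upstream start, chr6:145076108-145076407: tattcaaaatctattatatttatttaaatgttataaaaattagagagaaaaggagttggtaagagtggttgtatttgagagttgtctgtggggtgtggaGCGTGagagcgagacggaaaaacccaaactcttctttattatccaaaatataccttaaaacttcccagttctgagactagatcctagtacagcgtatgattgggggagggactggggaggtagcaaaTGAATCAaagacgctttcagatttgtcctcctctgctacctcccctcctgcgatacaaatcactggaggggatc
Bcat1 downstream start, chr6:145048763-145049062: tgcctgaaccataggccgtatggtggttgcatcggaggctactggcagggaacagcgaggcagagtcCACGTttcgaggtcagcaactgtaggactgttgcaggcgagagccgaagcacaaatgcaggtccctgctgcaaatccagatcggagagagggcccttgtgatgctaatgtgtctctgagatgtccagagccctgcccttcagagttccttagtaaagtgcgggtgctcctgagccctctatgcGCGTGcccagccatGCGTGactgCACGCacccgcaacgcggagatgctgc
Bcat2 first start, chr7:45569903-45570202: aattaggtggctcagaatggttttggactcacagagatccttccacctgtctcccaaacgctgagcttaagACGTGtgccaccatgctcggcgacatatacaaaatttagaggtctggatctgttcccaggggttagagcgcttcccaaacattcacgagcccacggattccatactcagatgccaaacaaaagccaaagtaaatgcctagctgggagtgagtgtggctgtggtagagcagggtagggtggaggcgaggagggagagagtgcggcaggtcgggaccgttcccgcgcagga

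The motifs were the E-box CACGTG, the hypoxia response core ACGTG (which the E-box contains on both strands) and GCGTG. Also searched were the AP-1-like pattern TGANTCA, in which N is any base, the cAMP response element TGACGTCA and the palindromic estrogen response element. The upstream Bcat1 start held TGAATCA, a match to TGANTCA with A as the middle base, beginning at position -24 from the start, and 1 GCGTG. Matches to TGANTCA occurred in 7.81% of 32851 promoters of the same length (those outside chromosome 18) and to GCGTG in 32.4%. The downstream Bcat1 start held 1 ACGTG match and 3 GCGTG matches, and each Bcat2 start held 1 ACGTG, which occurred in 19.6% of promoters. The E-box occurred in 7.15% of promoters and, among the 9 genes of the set with an entry, only at Mccc2. The upstream Bcat1 window was 41.0% GC and the downstream one 58.7%, with a median of 52.7% over the same promoters. A match describes the letters only.

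Bcat1 was the 1 gene of the set with a large difference between the groups. Reads assigned to it numbered 1550 and 4726 in ff against 18036 and 23926 in dd. This corresponded to 46.6 and 151.7 CPM in ff replicates 1 and 2, and to 763.4 and 789.8 CPM in dd replicates 1 and 2. Both dd libraries lay far above both ff libraries and close to each other, while the ff libraries differed 3.26-fold. The mean was 99.1 ± 74.4 CPM in ff and 776.6 ± 18.7 CPM in dd (SD, n = 2). In the edgeR fit dd exceeded ff by a log2 fold change of 2.97 (SE 0.577), a 7.83-fold difference with a 95% interval from 2.78 to 22.1. In the authors' deposited table the fold is 7.84. Bcat1 ranked 294 from the top among 18530 tested genes by log2 fold change and 16 by the difference in CPM.

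The spread of Bcat1 between the ff libraries is also given as a description, since both libraries entered the comparison that chose the set. The log2 ratio of Bcat1 in ff replicate 2 over ff replicate 1 was 1.70. This exceeded the absolute ratio of 98.5% of tested genes, whose median was 0.18. Between the dd libraries the log2 ratio of Bcat1 was 0.05. The size of the difference between groups accordingly depended on which ff library was compared. Omitting ff replicate 1 gave 5.12-fold and omitting ff replicate 2 gave 16.6-fold, against 8.02-fold without dd replicate 1 and 7.73-fold without dd replicate 2. It lay between 7.38-fold and 9.23-fold under the other 10 alternatives.

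**Figure D1:**
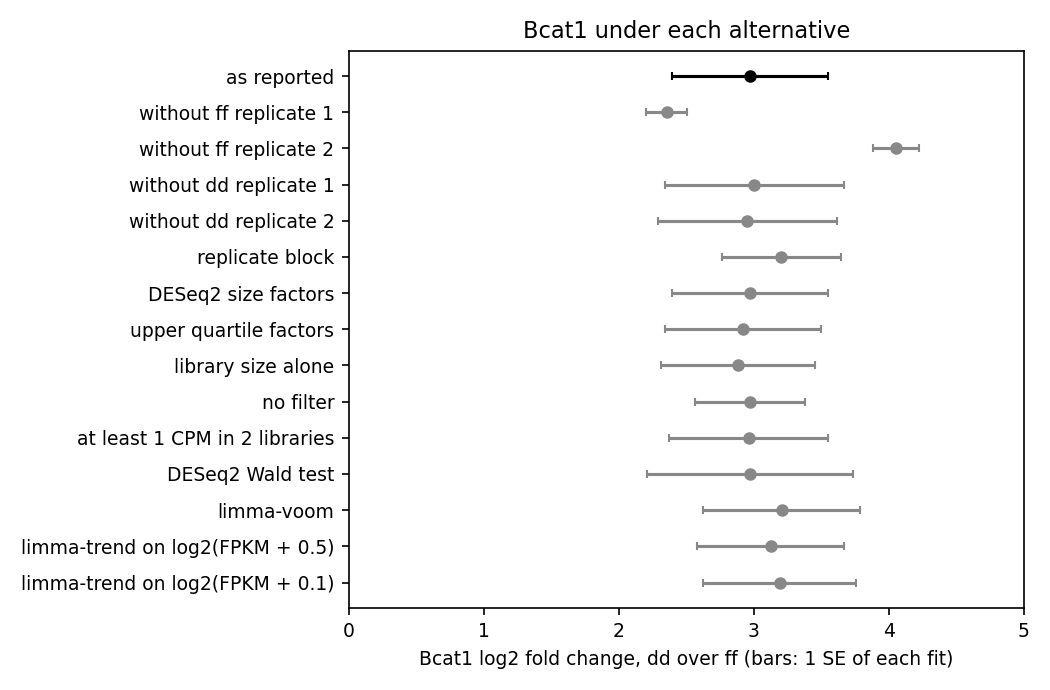
Log2 fold change of Bcat1, dd over ff, in the fit as reported (black) and in each alternative (grey), with bars of 1 SE. All 15 values lie between 2.36 and 4.06, and both ends come from leaving out an ff library.

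Bcat2, the mitochondrial transaminase, was nearly level. Its values were 62.5 and 58.8 CPM in ff and 70.1 and 67.3 CPM in dd, so the groups did not overlap but lay close together. The fold was 1.13 with a 95% interval from 0.974 to 1.32. In length-corrected units (FPKM, fragments scaled to transcript length and library size), Bcat1 stood at 5.0 and 16.2 in ff against 16.0 and 15.04 for Bcat2, below it in ff replicate 1 and slightly above it in ff replicate 2. In the dd libraries Bcat1 stood at 81.4 and 85.1 FPKM against 17.9 and 17.3 for Bcat2. Bcat1 thus made up 23.8% and 51.9% of the summed transaminase FPKM in ff, and 82.0% and 83.1% in dd. These shares rest on the joined length of all annotated exons, which for Bcat2 is 3900 bases against 2081 for its longest coding transcript. For Bcat1 these lengths are 9322 and 7833 bases. Per kilobase of the longest coding transcript, Bcat1 stood at 5.94 and 19.4 CPM in ff, below Bcat2 at 30.0 and 28.2 in both libraries. In dd Bcat1 stood at 97.5 and 100.8 against 33.7 and 32.4 for Bcat2. The summed FPKM of both genes was 26.1 ± 7.25 in ff and 100.8 ± 2.25 in dd (SD, n = 2), and Bcat1 accounted for nearly all of the difference.

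**Figure D2:**
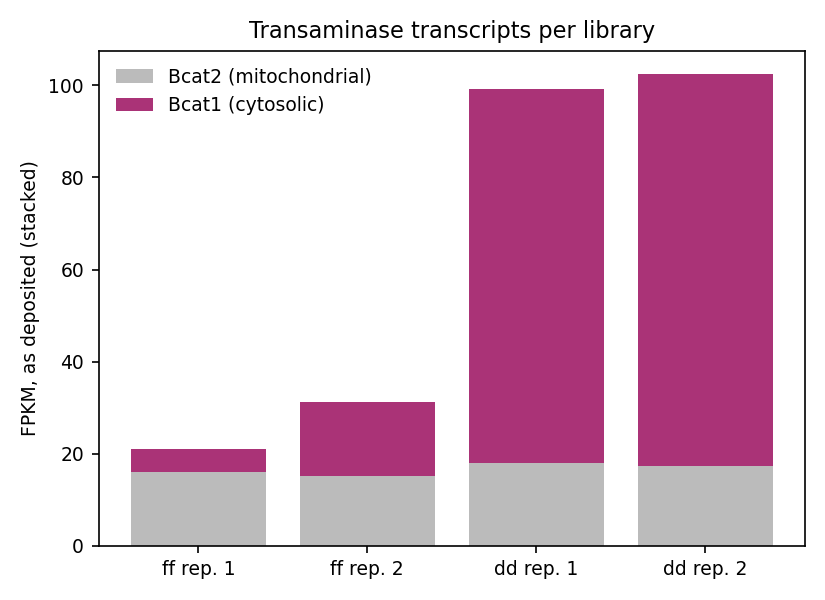
Deposited FPKM of Bcat2 (grey) and Bcat1 (purple), stacked, in each of the 4 libraries. Bcat2 lies between 15.04 and 17.9 in every library, while Bcat1 goes from 5.0 and 16.2 in ff to 81.4 and 85.1 in dd.

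The other genes of the set showed small differences, each with an interval that included a fold of 1. In the fit over all genes Bcat1 was called higher in dd (adjusted p under 0.05) and none of the other 9 was called, beside 8.39% of all tested genes called (4.52% higher and 3.86% lower). The call of Bcat1 was lost without either dd library. Neither DESeq2 nor limma-voom called any of the 9. Nothing is read from these calls, since the comparison chose the set. Log2 fold changes of the 9 genes ran from -0.24 (Mccc1) to 0.36 (Mccc2), with a median of 0.04 beside 0.00 over all tested genes. Their summed level was 428.6 and 475.0 CPM in ff and 488.5 and 431.8 CPM in dd, with overlap between the groups. Groups did not overlap in 4 of the 9 genes, namely Bcat2, Bckdha, Bckdk and Mccc1, beside 62.8% of all tested genes (31.6% higher and 31.3% lower in dd).

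**Figure D3:**
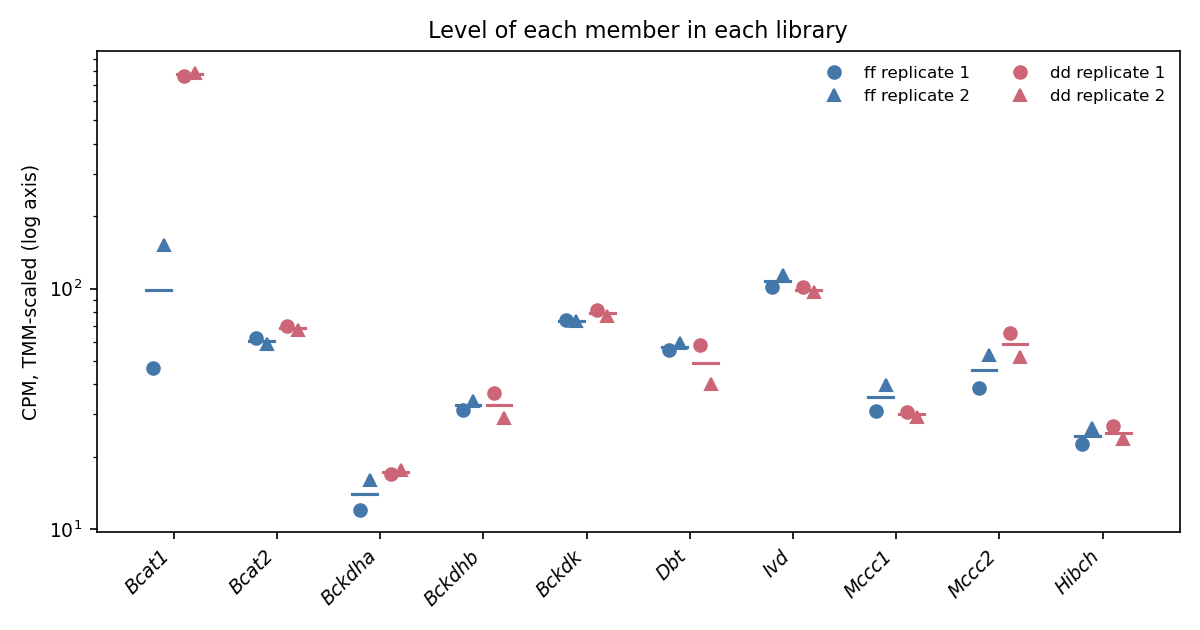
Level of the 10 genes in CPM (log axis) in each library, with ff in blue, dd in red, circles for replicate 1, triangles for replicate 2 and bars for group means. Bcat1 goes from 99.1 CPM in ff to 776.6 CPM in dd on average, and the group means of the other 9 genes lie close together.

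Among the ketoacid dehydrogenase genes, Bckdha and Bckdhb encode the decarboxylase subunits and Dbt the core that carries the lipoyl group. Bckdha had 11.99 and 16.0 CPM in ff and 16.9 and 17.6 CPM in dd, lowest in ff replicate 1, and a fold of 1.23 (95% interval 0.892 to 1.71). Bckdha shares 1171 exonic bases with B3gnt8 on the opposite strand, and without a stated use of strand the reads of these 2 genes cannot be told apart. The same limit holds for exonic bases of Bcat1 (337, with Gm26666) and Bcat2 (622, with 0610005C13Rik). It also holds for Mccc1 (94 with Gm15952, 321 with B230207O21Rik and 198 with Mccc1os). B3gnt8 itself had 9.10 ± 1.83 CPM in ff and 9.74 ± 3.88 CPM in dd (SD, n = 2). Bckdhb had 31.4 and 34.2 CPM in ff and 36.7 and 29.1 CPM in dd. Its dd libraries enclosed both ff libraries, and the fold was 1.00 (0.773 to 1.30).

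Dbt had 55.4 and 59.5 CPM in ff and 58.1 and 40.1 CPM in dd, with dd replicate 2 below the other 3 libraries. Its fold was 0.854 (95% interval 0.607 to 1.20), with a log2 fold change of -0.51 without dd replicate 1 and 0.02 without dd replicate 2. The ratio of Dbt to Bckdhb in FPKM was 0.951 and 0.939 in ff and 0.854 and 0.743 in dd. The kinase gene Bckdk, whose product inhibits the complex, was among the steadiest of the set at 73.9 and 73.3 CPM in ff and 81.9 and 76.6 CPM in dd. Its fold was 1.08 (0.927 to 1.25). The gene of the opposing phosphatase, Ppm1k, shown for its role and after its values were seen, had 10.2 and 13.7 CPM in ff and 10.1 and 8.35 CPM in dd. It missed edgeR's threshold (log2 fold change -0.38, adjusted p = 0.313). In FPKM the kinase exceeded the phosphatase 11.8-fold and 8.70-fold in ff, and 13.2-fold and 14.95-fold in dd.

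In the leucine arm, Ivd oxidises isovaleryl-CoA, and Mccc1 and Mccc2 form the biotin-dependent carboxylase of the next step. Ivd had 101.5 and 114.2 CPM in ff and 101.7 and 96.4 CPM in dd, with a fold of 0.918 (95% interval 0.770 to 1.10) and overlapping groups. Mccc1, the biotin-carrying subunit, had 30.9 and 39.8 CPM in ff and 30.8 and 29.3 CPM in dd. Its fold was 0.849 (0.648 to 1.11), and the gap between the groups was small beside the gap between the ff libraries. Mccc2, the carboxyltransferase subunit, had 38.6 and 52.9 CPM in ff and 65.6 and 51.7 CPM in dd, with overlap, and a fold of 1.28 (0.898 to 1.83). The 2 subunits of this enzyme thus had point estimates on opposite sides of 1. The FPKM ratio of Mccc2 to Mccc1 was 4.88 and 5.19 in ff and 8.33 and 6.90 in dd, without overlap. In the valine arm, Hibch, which frees hydroxyisobutyrate from its coenzyme A ester, had 22.5 and 26.3 CPM in ff and 26.8 and 23.6 CPM in dd. Its groups overlapped and its fold was 1.03 (0.806 to 1.32).

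Levels can be ranked between genes only per length. In ff the mean FPKM was 19.9 for Bckdk, 19.6 for Ivd, 18.1 for Bckdhb, 17.1 for Dbt, 16.3 for Mccc2 and 15.5 for Bcat2, followed by 10.6 for Bcat1, 7.36 for Bckdha, 4.03 for Hibch and 3.23 for Mccc1. Neighbours among the first 6 differed by no more than the spread between the libraries of at least 1 of them. In dd Bcat1 came first at 83.2 FPKM, ahead of Bckdk at 21.4. The lengths implied by these values are those of all annotated exons joined, which for Mccc1 is 10952 bases against 2455 for its longest coding transcript, and for Hibch 6059 against 1830. Counted per kilobase of the longest coding transcript, Mccc1 in ff stood at 14.4 CPM and Hibch at 13.3 CPM, above Bcat1 at 12.7 CPM, and Bckdha was lowest at 7.37 CPM. The place of Bcat1 in ff turned on the library, since it stood at 5.94 CPM per kilobase in ff replicate 1, below both genes, and at 19.4 in ff replicate 2, above Mccc1 at 16.2 and Hibch at 14.4. Bcat1 was first in dd on this scale too, at 99.1 CPM per kilobase.

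The further enzymes of the pathway showed smaller differences than Bcat1. Of 17 tested genes of a list of further breakdown enzymes, edgeR called 0 higher and 0 lower, beside 8.39% of all tested genes called. The median log2 fold change of the list was 0.02 (0.00 over all tested genes). At an unadjusted p under 0.05, 2 genes of the list were higher and 0 lower, limma-voom called 0 and DESeq2 called 1 higher. The share of all tested genes at that unadjusted cutoff was not counted and lies above 8.39%, so nothing is read from the unadjusted count. The largest increase was that of Echs1, the enoyl-CoA hydratase shared by several arms, at 61.8 and 69.0 CPM in ff and 98.4 and 88.4 CPM in dd (log2 fold change 0.51, SE 0.105, adjusted p = 0.0532). Its fold was 1.43 with a 95% interval from 1.18 to 1.73, and it passed with DESeq2 (adjusted p = 0.00882) and without a filter (adjusted p = 0.0187). Groups did not overlap in 10 of the 17 genes, beside 62.8% of all tested genes. Pccb, a propionyl-CoA carboxylase subunit, had 69.96 ± 2.45 CPM in ff and 86.9 ± 8.22 CPM in dd (adjusted p = 0.126). Mcee, the epimerase that follows it, had 19.2 ± 2.13 and 24.8 ± 3.08 CPM (adjusted p = 0.192).

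**Figure D4:**
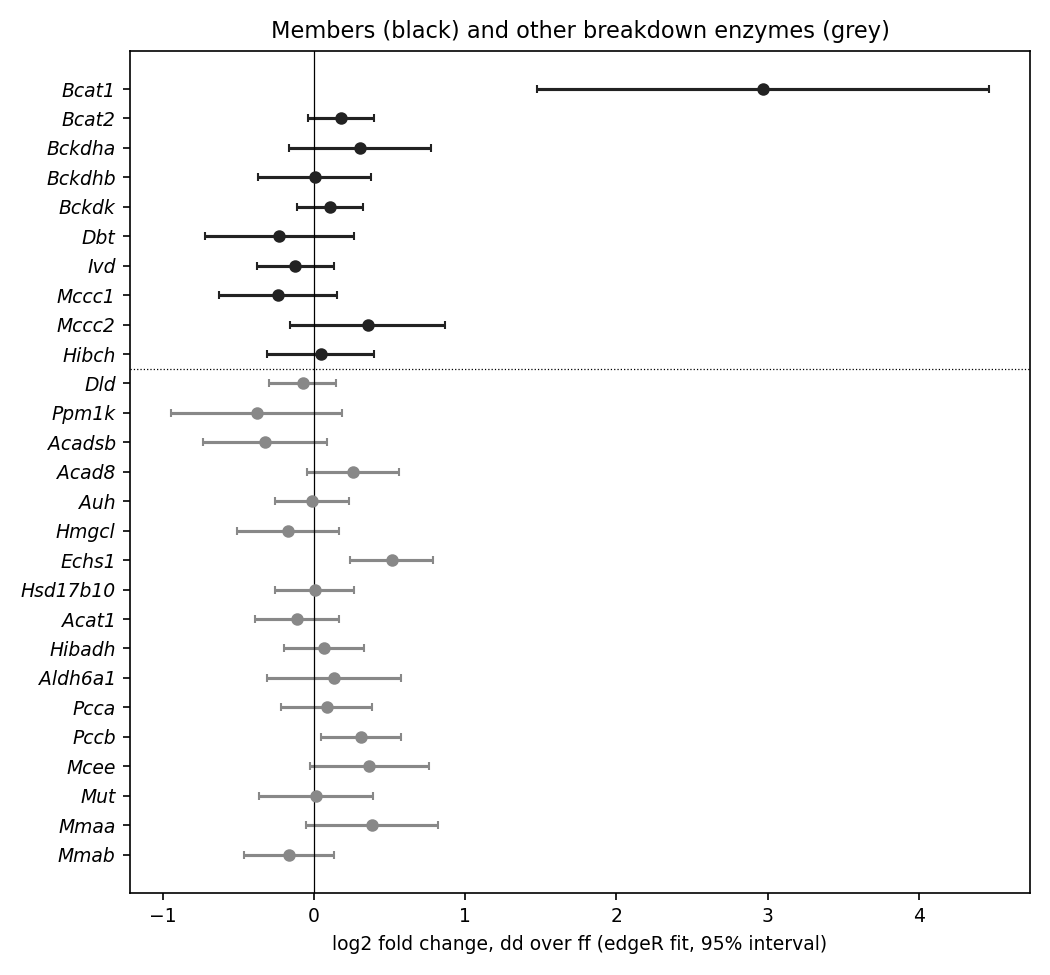
Log2 fold change of dd over ff with its 95% interval for the 10 genes of the set (black) and for 17 further breakdown enzymes (grey). Bcat1 stands at 2.97, and the others lie between -0.38 and 0.51.

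Carriers of branched-chain amino acids, 7 of the cell membrane and the mitochondrial carrier Slc25a44, moved in both directions. Of these 8 tested genes, 2 rose and 2 fell in edgeR's test, beside 4.52% of all tested genes called higher and 3.86% lower. The median log2 fold change of the 8 was -0.09. DESeq2 and limma-voom each called 2 higher and 3 lower. Slc25a44, named after its values were seen, had 38.8 ± 2.61 CPM in ff and 45.02 ± 3.91 CPM in dd (SD, n = 2) and was not called (adjusted p = 0.27). Slc6a14, a sodium- and chloride-driven carrier of neutral and basic amino acids, rose from 18.2 and 28.5 CPM in ff to 100.8 and 87.3 CPM in dd. Its log2 fold change was 2.01 (SE 0.236, adjusted p = 0.024). Slc6a15, a sodium-driven carrier of branched-chain amino acids best known from brain, rose from 3.39 and 2.54 CPM to 9.10 and 13.8 CPM (log2 fold change 1.95, SE 0.298, adjusted p = 0.0324). In both genes each dd library lay above each ff library.

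The carriers of facilitated exchange and diffusion did not follow them. Slc43a2 fell from 23.1 and 24.7 CPM in ff to 13.6 and 11.5 CPM in dd (log2 fold change -0.94, SE 0.143, adjusted p = 0.0324). Slc43a1 fell from 25.7 and 24.8 CPM to 16.7 and 17.1 CPM (log2 fold change -0.58, SE 0.111, adjusted p = 0.0465), and lost its call with the replicate block (adjusted p = 0.0811). Slc7a8, named after its values were seen, had 126.7 and 120.7 CPM in ff and 60.4 and 31.5 CPM in dd. It did not pass (log2 fold change -1.43, SE 0.312, adjusted p = 0.0608), but passed in 7 of 14 alternatives, among them the replicate block (adjusted p = 0.0319), DESeq2 (5.91e-05), limma-voom (0.0498) and library size alone (0.044). It also passed without a filter (adjusted p = 0.00293) and without dd replicate 1 (0.0209) or dd replicate 2 (0.0486). The leucine exchanger gene Slc7a5 and its partner Slc3a2, named likewise after their values were seen, had folds of 1.00 (95% interval 0.804 to 1.25) and 0.880 (0.731 to 1.06). The FPKM ratio of Slc6a14 to Slc7a8 was 0.209 and 0.344 in ff and 2.43 and 4.04 in dd. Calls of Slc43a1 and Slc43a2 were lost without any 1 library. Slc6a15 kept its call only without dd replicate 1, and Slc6a14 lost its call only without dd replicate 2 (adjusted p = 0.0509).

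Of 8 listed transcription factors and coactivators reported elsewhere to act on genes of this pathway, edgeR called 1 lower and 0 higher, limma-voom the same numbers, and DESeq2 1 lower and 2 higher. Of all tested genes, edgeR called 3.86% lower and 4.52% higher. Myc, a factor known to activate Bcat1 in several growing cell types, fell from 172.4 and 161.3 CPM in ff to 83.6 and 97.8 CPM in dd (log2 fold change -0.88, SE 0.112, adjusted p = 0.0255). The part of any regulator in the level of Bcat1 was not tested. The call of Myc was lost on leaving out either dd library or ff replicate 1 (adjusted p from 0.0529 to 0.0861). Hif1a, the oxygen-regulated factor, had 193.8 and 289.3 CPM in ff and 458.4 and 467 CPM in dd. It did not pass (log2 fold change 0.94, SE 0.208, adjusted p = 0.063), but passed with the replicate block (adjusted p = 0.0427), with DESeq2 (adjusted p = 0.000421), without a filter (adjusted p = 0.00612) and without ff replicate 2 (adjusted p = 0.0246). It was lowest in ff replicate 1 and nearly equal in the dd libraries. Ppargc1a, a coactivator of mitochondrial genes, had 4.50 ± 0.672 CPM in ff and 8.60 ± 1.24 CPM in dd (adjusted p = 0.0725). The largest positive log2 fold change of the list was that of the Myc relative Mycn, named after its values were seen, at 5.59 and 2.25 CPM in ff and 8.17 and 9.80 CPM in dd (1.20, SE 0.454, adjusted p = 0.166).

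**Figure D5:**
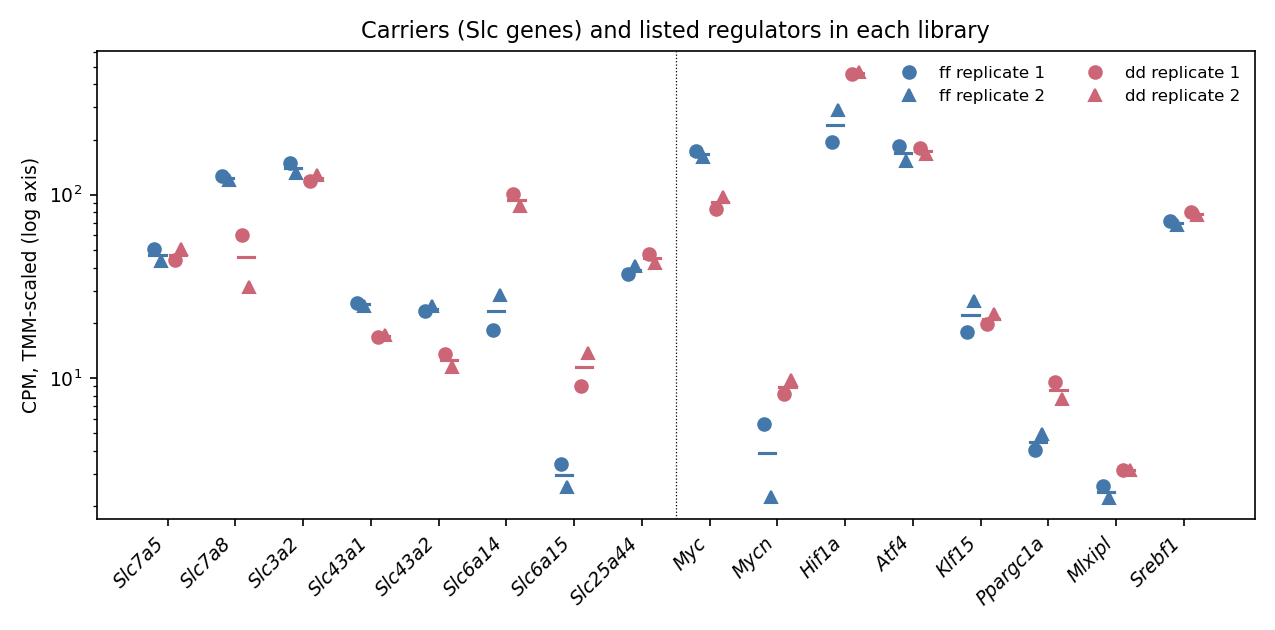
Level in CPM (log axis) of 8 tested carrier genes (left of the dotted line) and 8 listed regulators (right) in each library, with symbols as in the plot of the 10 genes. Slc6a14 and Slc6a15 rose, while Slc43a1, Slc43a2 and Myc fell.

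Partner lists held no call in edgeR's test, beside 8.39% of all tested genes called. Nothing is read from the counts of these lists at an unadjusted p under 0.05. The share of all tested genes at that cutoff was not counted and lies above 8.39%. Among 9 genes of glutamate metabolism and other transaminases, edgeR called 0, with 4 higher and 1 lower at an unadjusted p under 0.05, 0 by limma-voom, and 2 higher and 1 lower by DESeq2. The median was 0.11. Glul, which turns glutamate into glutamine, had 874.4 ± 80.0 CPM in ff and 525.3 ± 107.4 CPM in dd (log2 fold change -0.74, adjusted p = 0.0762). Psat1, a transaminase of serine synthesis that uses glutamate, had 48.8 ± 6.51 and 74.8 ± 12.3 CPM (0.62, adjusted p = 0.0826), and Got1, the cytosolic aspartate transaminase, 16.7 ± 0.620 and 25.4 ± 3.52 CPM (0.60, adjusted p = 0.0729).

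Among 20 genes of leucine sensing and the mTORC1 growth pathway, edgeR called 0, with 5 higher and 2 lower at an unadjusted p under 0.05, 0 by limma-voom and 2 higher by DESeq2. The median was 0.18. The smallest p-values were those of the Ragulator genes Lamtor5 (log2 fold change 0.40, adjusted p = 0.0574) and Lamtor2 (0.45, adjusted p = 0.102) and of the kinase gene Mtor (-0.39, adjusted p = 0.0953). Among 12 genes of the sister pyruvate and oxoglutarate dehydrogenase complexes and their kinases and phosphatases, edgeR called 0, with 4 higher and 1 lower at an unadjusted p under 0.05, 0 by limma-voom and 1 lower by DESeq2. The median was 0.13. Pdp1 and Pdp2, which encode the pyruvate dehydrogenase phosphatases, had log2 fold changes of -0.50 (adjusted p = 0.0701) and 0.73 (adjusted p = 0.153), and the kinase gene Pdk2 had 0.55 (adjusted p = 0.135).

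The genes whose 4 log2 CPM values lay closest to those of Bcat1, each centred on its own mean, were Lypd6b, Igkv6-15, Krt19, Ces1d and Galm, out of 13974 genes compared. The distances were 0.197, 0.237, 0.257, 0.356 and 0.371. Lypd6b, which encodes a Ly6-domain protein, had 0.901 and 2.60 CPM in ff and 15.7 and 15.9 CPM in dd. Krt19, an epithelial keratin gene, had 47.2 and 137.2 CPM in ff and 619.3 and 787.4 CPM in dd. All 5 were lowest in ff replicate 1 and highest in the dd libraries. With 4 libraries that fall into 2 groups, such likeness is a description only.

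Markers of several cell types differed between the groups, in both directions. Of all tested genes, 4.52% were called higher and 3.86% lower. Of 14 epithelial markers 7 rose and 0 fell, and their summed level was 1382 and 1638 CPM in ff and 3152 and 3679 CPM in dd. That was a 2.26-fold difference between groups and a 1.19-fold difference between the ff libraries. Single epithelial markers had log2 fold changes from 0.29 (Cldn3) to 2.93 (Krt19). Summed stromal markers (5 of 14 lower) were 17978 and 15876 CPM in ff and 12575 and 9179 CPM in dd, and summed endothelial markers (9 of 10 lower) 1691 and 1452 CPM in ff and 776.6 and 804.5 CPM in dd. Proliferation genes (3 of 10 lower) summed to 652.3 and 568.7 CPM in ff and 410.2 and 378.2 CPM in dd. The 9 smooth muscle markers had log2 fold changes from -0.17 to 0.56 and sums of 8663 and 7434 CPM in ff and 11763 and 6739 CPM in dd. Summed macrophage markers (4 of 8 lower) came to 327.9 and 381.1 CPM in ff and 315.3 and 303.7 CPM in dd. This sum includes Cd14, the only 1 of the 8 with a positive log2 fold change (1.09, edgeR adjusted p = 0.0604). Cd14 had 51.7 and 83.7 CPM in ff and 147.5 and 140.9 CPM in dd. The lymphocyte list (1 of 8 tested higher, 1 lower) summed to 66.8 and 61.9 CPM in ff and 39.1 and 40.8 CPM in dd. Ptprc, the gene called lower, is not particular to lymphocytes and made up most of the sum in ff. It had 47.6 and 45.3 CPM in ff and 21.0 and 18.7 CPM in dd. Cd79a, the gene called higher, had 1.08 and 1.06 CPM in ff and 5.54 and 12.4 CPM in dd. Plasma cell markers (2 of 6 higher) summed to 536.4 and 363.6 CPM in ff and 754.7 and 1292 CPM in dd. Jchain alone had 34.7 and 58.5 CPM in ff and 439.5 and 894.6 CPM in dd. Log2 fold changes were positive in 4 of the 6, and negative in Sdc1 (-0.01) and Xbp1 (-0.25). Oviduct and ciliated markers (2 of 6 higher) summed to 53.1 and 55.6 CPM in ff and 152.0 and 156.5 CPM in dd. Ovgp1 alone had 27.0 and 24.9 CPM in ff and 121.8 and 124.65 CPM in dd. Here too 4 of the 6 had positive log2 fold changes, and Tekt1 (-0.06) and Ccdc39 (-0.17) negative ones. Red cell markers (4 of 5 tested higher) summed to 69.3 and 68.0 CPM in ff and 237.6 and 305.8 CPM in dd. The fifth, Hba-a2, went the other way, at 6.16 and 7.48 CPM in ff and 2.16 and 0.13 CPM in dd. Its log2 fold change was -2.62 (edgeR adjusted p = 0.174). No listed marker was at 0 in all libraries. In whole tissue, fewer cells of a type and less RNA per cell cannot be told apart, and the part of these markers in the levels of Bcat1 and of the carriers was not tested.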

How the data were processed

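Whole-number counts per gene symbol, counts rescaled by the authors to a similar depth (a signal column, not used here), FPKM, a fold ratio (dd divided by ff) and a raw p-value (not used here) were taken as deposited by the authors. Per the submitters' processing notes, STAR, edgeR and mm10 were used. The counting program, annotation, use of strand and versions: not given in the sources used here. Columns headed FPKM are named RPKM in the design text.

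The 2 ff and 2 dd libraries entered an edgeR 4.0.16 fit of the counts under R 4.3.3, with TMM factors, filterByExpr, glmQLFit and glmQLFTest, and Benjamini-Hochberg adjustment over 18530 genes. The 10 genes and all lists were chosen with earlier results of these data known. Named were these 10, Mapk14, called list genes, otherwise up to 3 per list with the smallest p, and 5 genes most like Bcat1 among those with at least 1 mean CPM (log2 CPM with a prior count of 2). Mmut is spelled Mut in the table. Slc6a19 was not tested (low counts). The test was checked on simulated counts. Gene positions and lengths came from GENCODE on the same build. A count of 3 corresponded to 0.0924 to 0.122 CPM before scaling. Replicates differed beyond sampling noise (chi-square per degree of freedom 35.3 in ff, 36.0 in dd). Intervals are 95% intervals of the fit. Tried as alternatives: leaving out each library, a replicate block, DESeq2 1.42.0 size factors and Wald test, upper quartile factors, library size alone, 2 other filters, limma-voom (limma 3.58.1), and limma-trend on log2(FPKM + 0.5) and log2(FPKM + 0.1).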

Additional observations from a re-analysis of the deposited data

How the results depend on the processing

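Bcat1, whose rise chose the set, is given as a description. It was not called without dd replicate 1 or dd replicate 2, with at least 1 CPM in 2 libraries, or with limma-trend on FPKM at either pseudocount. Leaving out 1 library at a time gave Bcat1 log2 fold changes from 2.36 to 4.06. The same fits called from 62 to 726 genes higher and from 28 to 472 lower (838 and 716 with all libraries): 62 and 28 without ff replicate 1, 726 and 472 without ff replicate 2, 388 and 219 without dd replicate 1, 227 and 123 without dd replicate 2. They called from 1 to 3 carriers (4 with all libraries), 0 to 2 listed regulators (1), 0 to 1 leucine sensing genes (0) and 0 to 2 genes of the sister dehydrogenases (0). These fits take the spread of a group's lone library to be that of the other group. Without a filter edgeR called 1584 genes higher and 1363 lower, with 1 further breakdown enzyme, 3 regulators, 1 leucine sensing gene, 3 glutamate genes and 5 carriers. DESeq2 called 1518 higher and 1342 lower, with 1, 3, 2 and 3 genes of the first 4 of these lists, 1 of the sister dehydrogenases and 5 carriers. Limma-voom and library size alone also called 5 carriers. Limma-trend on FPKM called 2 carriers at either pseudocount. The cause of these differences was not tested. Of called genes, 53.9% were higher with TMM, 47.4% (748 higher, 830 lower) with upper quartile factors and 42.4% (751 and 1020) with library size alone, which also turned the median log2 fold change of the 10 genes from 0.08 to -0.01.

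The labels do not say whether same-numbered libraries are paired. Their deviations correlated at 0.01 across 18530 genes. This cannot exclude a shared batch, since differences particular to single libraries could mask it. With the replicate block 878 genes were higher and 653 lower, and 2 listed regulators were called. Bckdhb, Dbt and Hibch changed sign between alternatives. The 9 genes other than Bcat1 were called by neither edgeR, DESeq2 nor limma-voom, and their 95% intervals with 2 libraries a group all included no difference. This too is a description only, since the comparison chose the set.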
